A study of Rattus norvegicus with 172 samples.

Results

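The insulin-like growth factor (IGF) genes examined here are 8 members of 1 signalling system: the ligands Igf1 and Igf2 (NCBI genes 24482 and 24483), the receptor Igf1r (25718), and the genes of the binding proteins Igfbp2 (25662), Igfbp3 (24484), Igfbp4 (360622), Igfbp5 (25285) and Igfbp6 (25641). They were taken by symbol and are 8 of the 14218 genes that the rat expression arrays name. Where several probe sets carried a symbol, the brightest one on average in cord stood for the gene, and all 8 genes reached the level required for testing in each segment (a group mean of at least 6.55 on the log2 scale). The question was how these transcripts differ from normal cord across segment, treatment and time after a complete cut of the spinal cord.

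Female Wistar rats aged 2 months had the thoracic cord transected and a piece of 5 mm removed. The gap was left empty (lesion control), was bridged with a hollow chitosan tube (tube alone), or received a chitosan tube holding carriers loaded with neurotrophin-3 (NT-3 tube). Blocks of 5 mm rostral to the gap, at the gap and caudal to it were taken with dura and meninges on days 1, 3, 10, 20, 30, 60 and 90. The lesion block was sampled from day 3 on and, for tube alone, on day 3 alone. The arrays comprised 60 of lesion control, 60 of NT-3 tube, 44 of tube alone and 3 of normal cord, besides 5 of a reference RNA. Each array of injured cord held RNA pooled from 4 animals, and each of the 55 groups of arm, segment and day had 3 arrays, or 2 for tube alone rostral on day 10. All injured groups share the transection and the removal of cord. The lesion block was taken at the gap, where cord had been removed, and how much adjoining cord it held was not tested. Arrays of a group are independent pools per the labels, so the p-values measure the spread between pools and not between animals.

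IGF1 and IGF2 are secreted peptides that act through the IGF1 receptor, a tyrosine kinase coupled to PI3K-AKT and MAPK signalling, and they promote survival, growth and myelination in the nervous system. IGF-binding proteins hold the ligands in the extracellular space, lengthen their life and block or deliver them to the receptor, and some also act on cells or matrix without a ligand. In brain and cord, Igf1 transcripts are made by microglia and macrophages after injury, Igf2 and Igfbp2 are well known from the meninges and choroid plexus, and Igfbp5 is known from reactive glia, fibroblasts and muscle.

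The promoters of 4 members are shown. Igfbp2 and Igfbp5 are neighbours on the same chromosome, and both transcripts were high in nearly all injured groups. Igfbp4 rose mainly in the lesion segment, and Igf1r had the narrowest range of differences from normal cord. A link between promoter letters and transcript levels was not tested. The sequences are the 250 bases before the transcription start in RefSeq's annotation of the rat assembly GRCr8, 5' to 3' on the gene's strand. The 8 members all matched an entry, Igf2 with a pair of them. Capitals mark a TATA box spelled TATAAA, a GC box spelled GGGCGG and an E-box spelled CACGTG, each searched on both strands. No motif overlapped another.
Igfbp2, chr9:81864561-81864810, plus strand: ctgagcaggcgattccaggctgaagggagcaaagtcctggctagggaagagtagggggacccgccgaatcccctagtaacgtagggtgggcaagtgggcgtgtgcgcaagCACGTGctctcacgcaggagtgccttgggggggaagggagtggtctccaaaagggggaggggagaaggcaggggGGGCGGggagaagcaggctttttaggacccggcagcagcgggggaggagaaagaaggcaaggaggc
Igfbp5, chr9:81914188-81914437, minus strand: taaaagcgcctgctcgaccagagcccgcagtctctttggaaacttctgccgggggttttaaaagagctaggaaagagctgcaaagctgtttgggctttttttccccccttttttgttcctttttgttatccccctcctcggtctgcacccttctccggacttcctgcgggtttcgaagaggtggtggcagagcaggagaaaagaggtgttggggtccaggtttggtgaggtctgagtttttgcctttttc
Igfbp4, chr10:84491221-84491470, plus strand: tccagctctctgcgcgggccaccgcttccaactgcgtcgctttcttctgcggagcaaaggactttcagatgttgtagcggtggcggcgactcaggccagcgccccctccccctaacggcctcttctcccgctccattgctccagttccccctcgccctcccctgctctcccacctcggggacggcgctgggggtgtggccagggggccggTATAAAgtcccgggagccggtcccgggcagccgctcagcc
Igf1r, chr1:130959747-130959996, plus strand: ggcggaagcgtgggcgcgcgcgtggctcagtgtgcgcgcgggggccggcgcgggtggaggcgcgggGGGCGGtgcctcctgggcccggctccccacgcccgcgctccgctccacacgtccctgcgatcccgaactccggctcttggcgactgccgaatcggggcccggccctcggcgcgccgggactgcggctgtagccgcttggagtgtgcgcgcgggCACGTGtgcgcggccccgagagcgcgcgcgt
The starts of Igfbp2 and Igfbp5 lie 49376 bases apart with 0 genes between them, and the genes are read toward each other. Their promoters are unlike in these letters: the Igfbp2 window holds a GC box 66 bases and an E-box 140 bases before the start, and the Igfbp5 window holds none of the motifs. Igfbp4 has a TATA box 40 bases before its start. Igf1r has a GC box at 184 bases and an E-box at 31 bases, and 79.6% of its bases are G or C, against a median of 51.2% over all promoters. Among 33469 promoter windows of this length 12.9% hold the TATA box, 30.5% the GC box and 5.59% the E-box. A match describes the letters and shows no binding.

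Arrays of the same group were alike, with a median correlation over genes of 0.9912 and a lowest value of 0.9649 in lesion control lesion on day 3. Defining markers fitted the tissue of normal cord, where 10 of 11 neuronal, 6 of 6 oligodendrocyte and 7 of 7 astrocyte genes lay above the level required for testing. Transcripts of skeletal muscle, a tissue outside the cord, were high in part of the lesion arrays. A list of 15 measured skeletal muscle genes stood on average 0.27 to 4.28 log2 units above normal cord in the 18 lesion control arrays of that block, with a median of 2.36, against -0.90 to 3.27 with a median of 0.27 in the 18 NT-3 tube arrays. The 13 lesion arrays with the list over 2 log2 units above normal cord (12 from lesion control, 1 from NT-3 tube) are called muscle-rich. The lesion comparisons with normal cord, with the other segments and between NT-3 tube and lesion control were repeated without them. Each call that changed is named. A day left without arrays in 1 arm or segment was dropped from both sides. As 12 of the 18 lesion control arrays were left out, a lost call can also come from fewer arrays. RT1-CE10, a class I histocompatibility gene, also divided groups by arm and day, for example 10.95 in lesion control rostral on day 30 against 7.23 on day 90, where NT-3 tube had 10.90. Each arm comparison was repeated on matched days, those with a gap in RT1-CE10 below 1 log2 unit.

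Most IGF transcripts were higher in lesion control than in normal cord in each segment and period, except caudal to the gap on days 60 and 90, where 2 of 8 were. Rises and falls are calls of limma's test at a Benjamini-Hochberg adjusted p under 0.05 over all genes tested, and differences are in log2 units, each with its standard error. Rostral to the gap in lesion control on days 1 and 3, 6 of 8 members were higher and 0 lower, where 28.9% of all genes tested were higher, 30.1% lower and 59% either. Rostral on days 10 to 30 it was 6 and 1 (all genes 30.7%, 32.4% and 63.1%), and on days 60 and 90 it was 5 and 0 (25.4%, 32.5% and 57.9%). Lesion control at the lesion had 5 higher and 1 lower on day 3 (42.3%, 34.8% and 77.1%), 7 and 1 on days 10 to 30 (41.7%, 36.2% and 77.9%) and 8 and 0 on days 60 and 90 (35.6%, 36.6% and 72.2%). Caudal counts were 5 and 0 on days 1 and 3 (30.8%, 30.4% and 61.2%), 5 and 1 on days 10 to 30 (28%, 29.3% and 57.3%) and 2 and 0 on days 60 and 90 (24%, 28.8% and 52.8%). Each period averages its days, and the counts for days 1 and 3 join days of opposite sign. Caudal on day 1 alone, Igf1 was lower (-0.69 ± 0.25, adjusted p = 0.0223), Igfbp5 was at -0.53 and not called, and Igfbp2, Igfbp3 and Igfbp6 were higher. Rostral on day 1 Igf1 was at -0.29 and not called. The median over the 8 members was 2.56 at the lesion on days 10 to 30, against 0.06 over all genes tested, 1.66 against -0.02 rostral on the same days, and 1.02 against -0.01 caudal. On days 60 and 90 it was 2.55 at the lesion, 1.13 rostral and 0.34 caudal. The 3 normal cord arrays are labelled 2 months and have no day. In late differences from normal cord, age and time after injury therefore cannot be told apart. The last caudal count changed when any of several single arrays was left out. Without lesion control caudal day 90 replicate 2, for example, 4 members were higher. Igf2 at 0.70 (adjusted p = 0.0167) and Igfbp5 at 0.84 (adjusted p = 0.0216) were then added. The lesion counts without the muscle-rich arrays were 6, 8 and 7 members called on day 3, days 10 to 30 and days 60 and 90.

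Lists of marker genes moved beside these members. Of 15 genes of meninges and fibroblasts, 14 were higher and 1 lower rostral on days 10 to 30 (median 2.19), 13 higher and 1 lower at the lesion (3.10) and 13 higher and 1 lower caudal (1.84). Of 16 genes of microglia and macrophages, 16 were higher rostral (2.48), 14 higher and 1 lower at the lesion (2.25) and 16 higher caudal (2.33). The part of these cells in the members' differences was not tested. In bulk tissue more cells of a type and more RNA per cell cannot be told apart.

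Igf1 encodes the ligand that microglia and macrophages supply after injury. In normal cord its 3 arrays read 9.12, 9.40 and 9.49 (9.34 ± 0.19, mean ± SD). Lesion control rostral arrays were at 8.95, 8.71 and 9.47 on day 1, which overlaps normal cord, and at 10.66, 11.42 and 11.42 on day 3, all above it. Caudal arrays read 8.52, 8.42 and 9.01 on day 1 and 11.72, 11.44 and 11.85 on day 3. The caudal day 1 arrays all lay below normal cord, and this was a fall of 0.69 ± 0.25 (SE, adjusted p = 0.0223), the only fall of Igf1 among the 55 groups. Between day 1 and day 3 Igf1 rose 4.36-fold rostral (2.12 ± 0.22, adjusted p = 1.50e-10) and 8.11-fold caudal (3.02 ± 0.25, adjusted p = 9.74e-14).

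At the lesion Igf1 was already at 11.62, 11.89 and 12.04 on day 3 and reached 13.18, 13.25 and 13.14 on day 10. The day 10 arrays stand 14.45-fold above the normal mean and over all day 3 arrays. The level then came down to 11.95 ± 0.08 on day 60 and 11.91 ± 0.10 on day 90, still 6.13- and 5.97-fold over normal cord. Over days 10 to 30 the difference from normal cord was 3.67 ± 0.09 (adjusted p = 1.99e-26), and 3.63 without the muscle-rich arrays. Rostral and caudal the same days gave 2.83 ± 0.18 and 2.43 ± 0.21, and days 60 and 90 gave 2.32 ± 0.19 and 2.06 ± 0.22. Across arms, Igf1 was higher than normal cord in 49 of 55 groups, and the 5 groups in which it was not called were all of day 1. From day 1 to day 3 the microglia and macrophage genes rose too, 13 of 16 rostral with 1 lower (median 1.04) and 14 of 16 caudal (median 1.22). At the lesion their mean level above normal cord was 3.15 to 3.35 on day 3 and 2.59 to 2.77 on day 10, while Igf1 rose. The part of these cells in the level of Igf1 was not tested.

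Igf2, the ligand also known from meninges, had 3 tightly grouped normal arrays, 10.35, 10.32 and 10.33. At the lesion on day 3 it was lower than that in all arms: 8.73, 8.62 and 8.56 in lesion control, 9.78, 8.90 and 9.02 in NT-3 tube, and 8.33, 8.47 and 8.47 in tube alone. No array of these groups reached the normal range. The fall was 1.70 ± 0.19 in lesion control (3.24-fold, adjusted p = 8.62e-10), 1.10 ± 0.19 in NT-3 tube and 1.91 ± 0.19 in tube alone.

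By day 10 the lesion control arrays at the lesion had turned to 13.31, 12.72 and 13.06, all above normal cord. The step from day 3 to day 10 was 21-fold (4.39 ± 0.19, adjusted p = 1.54e-17), the largest of the 8 members in that comparison. Igf2 then stayed between 12.90 ± 0.06 on day 30 and 13.33 ± 0.10 on day 20. In NT-3 tube the lesion mean went from 12.15 ± 0.19 on day 10 to 13.74 ± 0.15 on day 90. Rostral to the gap lesion control Igf2 was 10.64 ± 0.18 on day 3 and 12.11 ± 0.33 on day 10, and it was 1.99 ± 0.13 above normal cord over days 10 to 30. The rostral difference on days 1 and 3 (0.34 ± 0.14, adjusted p = 0.0327) is weakly held: it lost its call without any 1 of 7 arrays, among them each normal cord array (adjusted p = 0.0648, 0.0807 and 0.0727). Caudal values were lower, with 1.19 ± 0.25 on days 10 to 30 and 0.45 ± 0.27 (adjusted p = 0.151) on days 60 and 90. Of the other 3 probe sets of Igf2, all lay near background with means of 5.23 to 6.06, so this gene rests on 1 probe set.

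**Figure D1:**
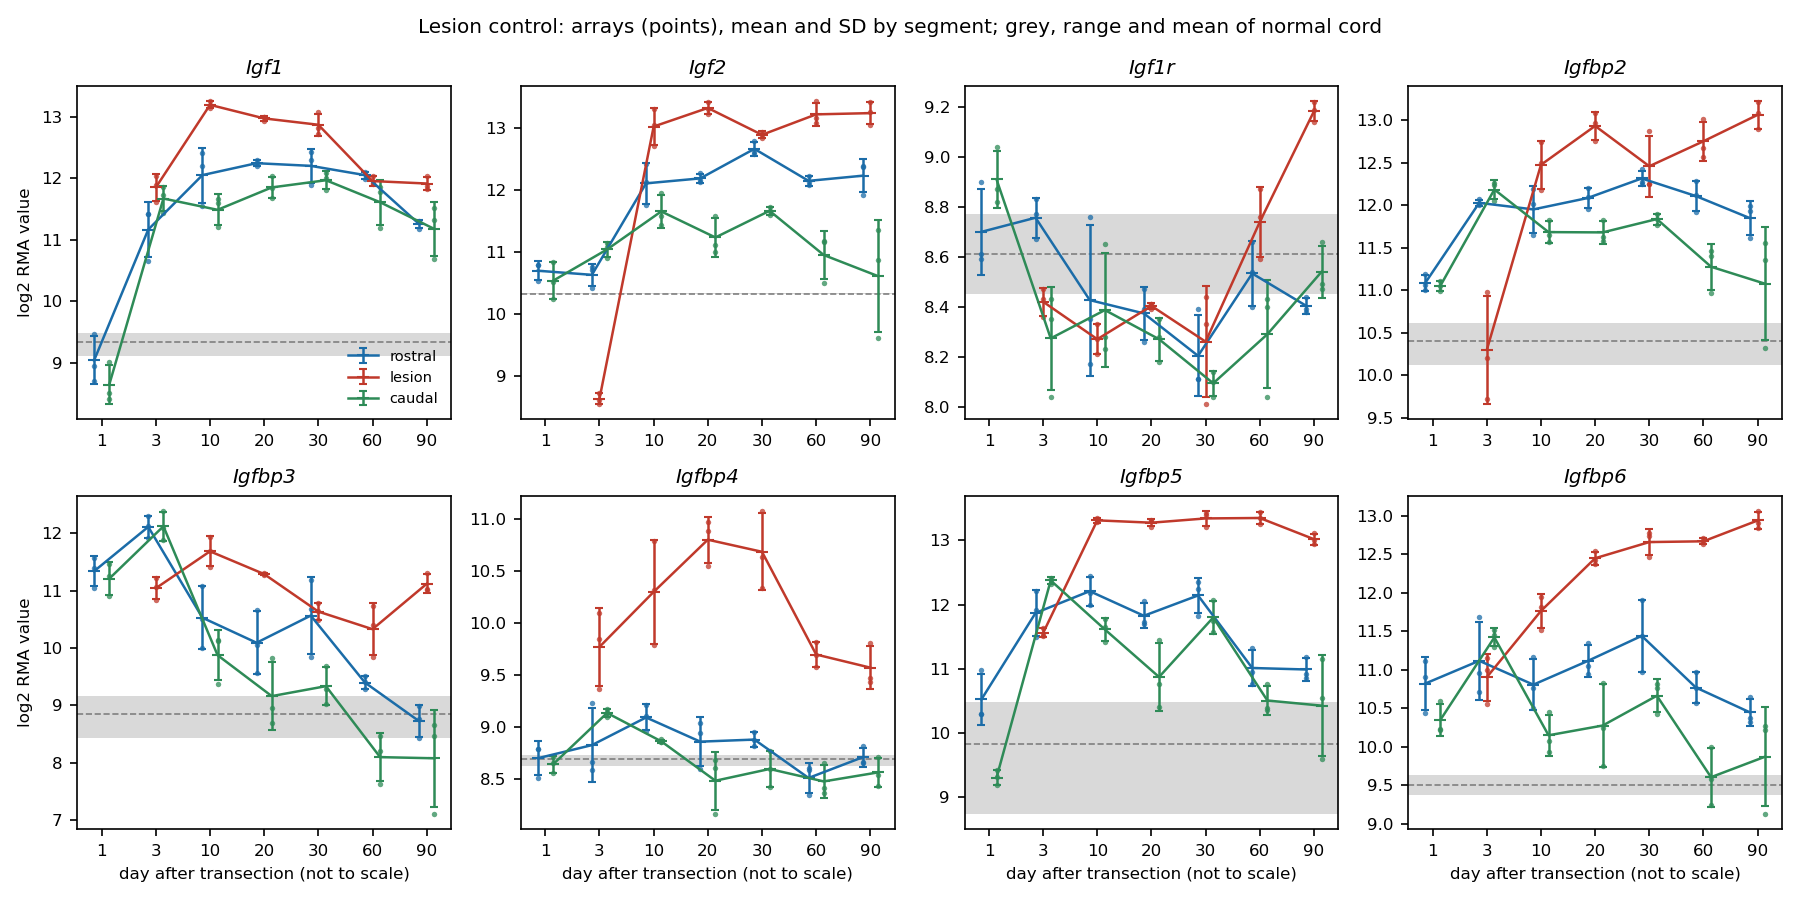
Log2 RMA values of the 8 members in lesion control by day after transection (days spaced evenly), with arrays as points, group means joined by lines and SD as bars for the rostral, lesion and caudal segments, and the range and mean of the 3 normal cord arrays in grey. Igf2 at the lesion goes from 8.64 on day 3 to 13.03 on day 10, Igfbp3 is highest on day 3 rostral and caudal, and Igfbp4 is high in the lesion segment.

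Igf1r, the receptor through which both ligands signal, had the narrowest range of differences from normal cord over the 55 groups, from -0.55 to 0.57. Normal arrays read 8.45, 8.77 and 8.62. Over days 10 to 30 it fell by 0.28 ± 0.10 rostral (1.21-fold, adjusted p = 0.0107), by 0.30 ± 0.08 at the lesion (adjusted p = 0.00129) and by 0.36 ± 0.12 caudal (adjusted p = 0.00655). Lesion control caudal arrays on day 30 read 8.04, 8.10 and 8.14 and lay wholly below normal cord. Without normal cord replicate 2, the highest of the 3, the rostral and caudal falls lost their calls (-0.20, adjusted p = 0.126, and -0.285, adjusted p = 0.0763), while the lesion one held (-0.22, adjusted p = 0.0312). The other probe set of Igf1r, with a mean of 7.77, read -0.51 rostral, -0.32 at the lesion and -0.51 caudal on these days. On days 60 and 90 it read -0.58 rostral, -0.06 at the lesion and -0.46 caudal. There the probe set used gave -0.14 rostral and -0.20 caudal, neither called. The other probe set was not tested on its own.

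Late at the lesion the receptor was on the other side. Lesion control arrays on day 90 read 9.14, 9.22 and 9.19, all above normal cord, a rise of 0.57 ± 0.10, and NT-3 tube had 9.18 ± 0.20 on day 60 and 9.18 ± 0.16 on day 90. These were the only 3 of 55 groups in which Igf1r was higher, against 22 in which it was lower. The lesion control rise over days 60 and 90 (0.35 ± 0.09, adjusted p = 0.000637) was 0.15 (adjusted p = 0.413) without the muscle-rich arrays and 0.14 (adjusted p = 0.108) as the mean of its 2 probe sets, which correlated at 0.62 over the cord arrays.

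Igfbp2 encodes the binding protein abundant in meninges and cerebrospinal fluid, with normal arrays at 10.12, 10.62 and 10.48. Rostral lesion control arrays read 11, 11.06 and 11.19 on day 1 and 12.01, 12.07 and 12 on day 3, all above normal cord. From day 3 the rostral mean stayed between 11.85 ± 0.20 and 12.31 ± 0.09. Like Igf2, Igfbp2 was not raised at the lesion on day 3, where arrays at 10.98, 9.72 and 10.20 spanned the normal range (-0.11 ± 0.23, adjusted p = 0.686), and it stood at 12.74, 12.18 and 12.50 on day 10. The lesion difference was 2.21 ± 0.19 on days 10 to 30 (1.95 without the muscle-rich arrays) and 2.50 ± 0.20 on days 60 and 90 (2.26). Caudal differences were 1.78 on day 3 and 0.77 ± 0.20 on days 60 and 90. Of 55 groups 51 were higher and 0 lower. The 4 not called were the 3 arms at the lesion on day 3 and tube alone caudal on day 1.

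Igfbp3 encodes the main carrier of IGF in blood, and it was already high on day 1. Its normal arrays read 8.95, 8.43 and 9.16. On day 1 lesion control arrays were at 11.40, 11.05 and 11.57 rostral and at 11.26, 10.90 and 11.47 caudal, all above normal cord, when Igf1 had not risen. On day 3 they read 11.92, 12.30 and 12.12 rostral and 12.09, 12.39 and 11.89 caudal. These day 3 means are 9.62- and 9.69-fold above normal cord.

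In lesion control Igfbp3 away from the gap came down again and was not called on day 90. Lesion control rostral means were 10.09 ± 0.55 on day 20, 9.40 ± 0.12 on day 60 and 8.73 ± 0.28 on day 90, and caudal ones 9.16 ± 0.59, 8.10 ± 0.42 and 8.08 ± 0.85. The fall from days 1 and 3 to days 60 and 90 was 2.66 ± 0.17 rostral (6.33-fold, adjusted p = 5.15e-18) and 3.58 ± 0.29 caudal (11.9-fold, adjusted p = 1.07e-14). Late caudal arrays, 7.64, 8.20 and 8.46 on day 60 and 8.47, 7.11 and 8.66 on day 90, reach below the normal range, at -0.76 ± 0.35 against normal cord (adjusted p = 0.0644). That comparison passed the threshold without normal cord replicate 2 (-0.965, adjusted p = 0.0492) and without any 1 of 3 lesion control arrays (day 60 replicate 3 and day 90 replicates 1 and 3, adjusted p = 0.0334 to 0.0483). With array weights it also passed (-0.76, adjusted p = 0.0192). Values in the other arms differed: on day 60 tube alone was 2.07 ± 0.23 above normal cord rostral (adjusted p = 1.20e-10) and 1.2 ± 0.40 caudal (adjusted p = 0.0109), and NT-3 tube was 0.68 ± 0.23 rostral (adjusted p = 0.0148) and 0.74 ± 0.40 caudal (adjusted p = 0.120). On day 90 tube alone was still 1.06 ± 0.23 above rostral (adjusted p = 0.000131), where NT-3 tube was at 0.32 ± 0.23 (adjusted p = 0.252). At the lesion Igfbp3 in lesion control was 11.69 ± 0.26 on day 10, 10.33 ± 0.45 on day 60 and 11.12 ± 0.16 on day 90, and all 13 lesion groups of the 3 arms were above normal cord.

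Igfbp4, whose product inhibits IGF action and is cleared by the protease PAPP-A, rose mainly in the lesion segment. Normal arrays were 8.73, 8.62 and 8.73. Lesion control arrays at the lesion read 9.36, 9.85 and 10.10 on day 3, 10.89, 10.97 and 10.55 on day 20 and 9.81, 9.47 and 9.43 on day 90. All lie above normal cord, with the highest mean on day 20. The difference was 1.90 ± 0.16 on days 10 to 30 (3.74-fold, adjusted p = 1.62e-12) and 1.5 without the muscle-rich arrays. Rostral and caudal differences over the 3 periods ranged from -0.18 to 0.25 and none was called, though the largest (0.25 ± 0.12 rostral on days 10 to 30, adjusted p = 0.0799) passed without lesion control rostral day 20 replicate 1 (0.29, adjusted p = 0.0385). Over all arms it was higher in 13 of 13 lesion groups, 4 of 21 rostral and 2 of 21 caudal groups.

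Igfbp5 encodes a binding protein that also attaches to matrix and is known from muscle, bone and glia. Its normal arrays, 10.49, 8.74 and 10.27, are apart, with replicate 2 low, so its differences from normal cord have a wide error. Rostral lesion control arrays on day 1 (10.30, 10.29 and 10.98) overlapped normal cord, and the day 3 arrays (11.49, 12.21 and 11.91) lay above it. Caudal arrays went from 9.31, 9.19 and 9.42 on day 1 to 12.32, 12.39 and 12.42 on day 3, a rise of 8.4-fold (3.07 ± 0.36, adjusted p = 1.90e-09). The caudal day 1 arrays lay below normal cord replicates 1 and 3 and above replicate 2, at -0.53 ± 0.36 from the normal mean (adjusted p = 0.238). Against normal cord the caudal mean over days 1 and 3 thus joins days of opposite sign.

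Lesion arrays of Igfbp5 were at 11.51, 11.53 and 11.64 on day 3 and at 13.31, 13.35 and 13.28 on day 10, and the mean then kept within 13.02 to 13.35 until day 90. Over days 10 to 30 this was 3.48 ± 0.18 above normal cord (11.1-fold, adjusted p = 1.93e-17), 3.54 without the muscle-rich arrays and 2.93 without normal cord replicate 2. The other calls depend more on that array. Without it the differences were 0.82 instead of 1.36 rostral on days 1 and 3, 0.62 (adjusted p = 0.0715) instead of 1.17 rostral on days 60 and 90, 0.46 (adjusted p = 0.241) instead of 1.01 caudal on days 1 and 3, and 1.05 instead of 1.60 caudal on days 10 to 30. Caudal on days 60 and 90 the difference of 0.63 ± 0.32 (adjusted p = 0.0863) was 0.09 without it, and 0.96 (adjusted p = 0.0215) or 0.85 (adjusted p = 0.0492) without normal cord replicate 1 or 3.

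Igfbp6, whose product binds IGF2 more tightly than IGF1, had normal arrays at 9.38, 9.52 and 9.63. Lesion control at the lesion rose step by step, with 10.56, 11.15 and 11 on day 3, 12.54, 12.37 and 12.43 on day 20 and 12.84, 13.06 and 12.91 on day 90. All these lie above normal cord, and the day 90 arrays above all day 3 and day 20 arrays. Days 60 and 90 stood 3.73-fold over day 3 (1.90 ± 0.14, adjusted p = 1.21e-13) and 9.79-fold over normal cord (3.29 ± 0.14, and 3.12 without the muscle-rich arrays). Rostral arrays read 10.90, 11.12 and 10.44 on day 1, all above normal cord, and the rostral mean was 11.44 ± 0.47 on day 30. Caudal arrays peaked at 11.52, 11.45 and 11.29 on day 3 and read 10.00, 9.24 and 9.58 on day 60, which overlaps normal cord. The caudal fall from days 1 and 3 to days 60 and 90 was 1.14 ± 0.21 (adjusted p = 1.55e-05).

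Counted over the 55 groups of all arms, each tested against normal cord on its own day, Igfbp2 was higher in 51, Igf1, Igfbp5 and Igfbp6 in 49 each, Igfbp3 in 44, Igf2 in 41, Igfbp4 in 19 and Igf1r in 3. Lower calls numbered 22 for Igf1r, 4 for Igf2 and for Igfbp4, 1 for Igf1 and 0 for the others. Over all genes and these contrasts 29.6% of calls possible were made as higher and 30.5% as lower. All groups share the same 3 normal cord arrays. The low group outside the lesion segment of Igf2 was tube alone rostral on day 3, with arrays at 10.03, 9.79 and 9.97.

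**Figure D2:**
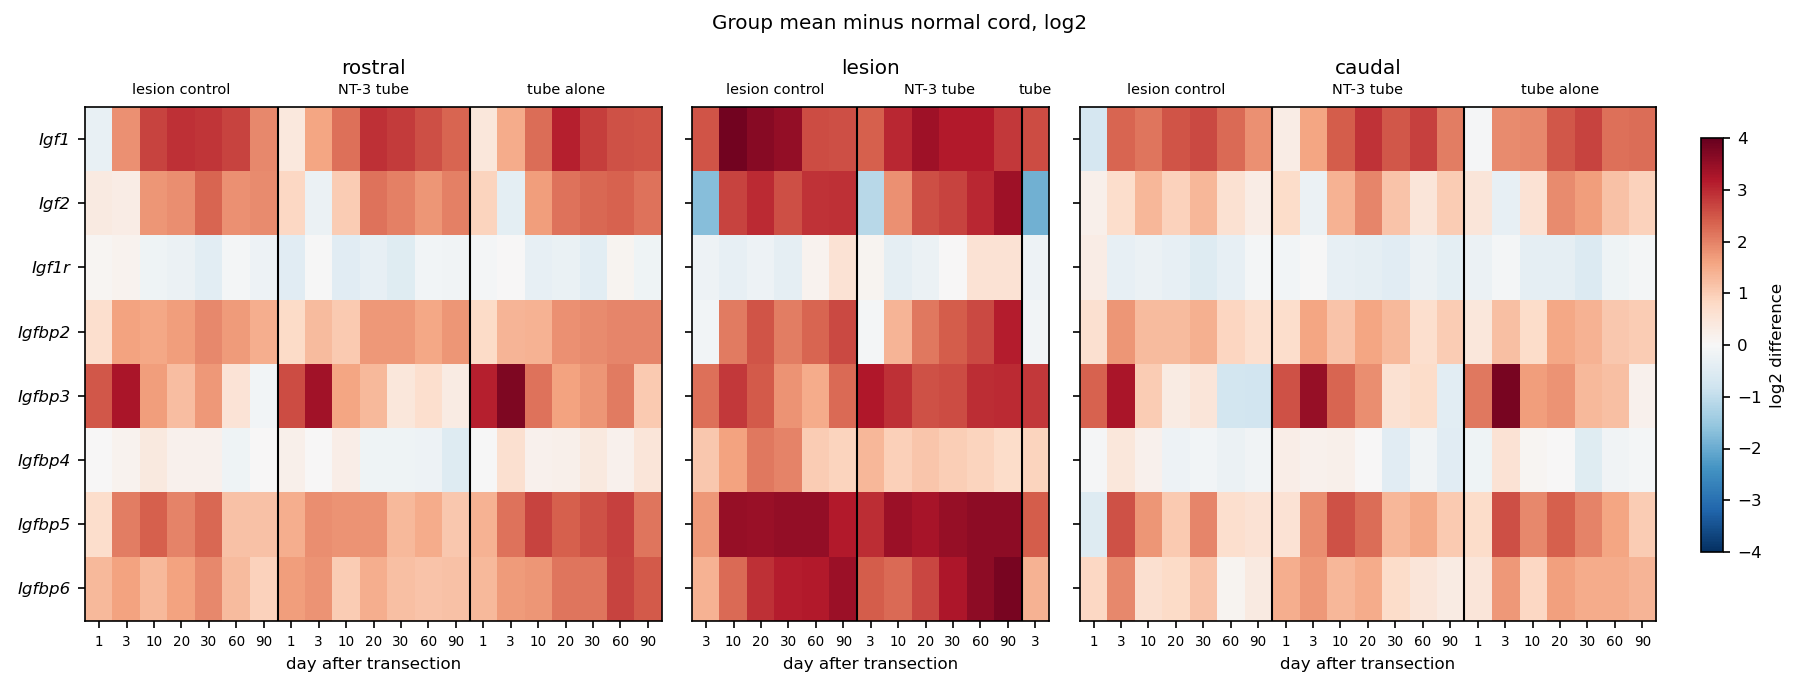
Group mean minus the mean of normal cord (log2) for the 8 members in all 55 groups, by segment, arm and day, in red where higher and blue where lower. Igf1, Igfbp2, Igfbp5 and Igfbp6 are red in nearly all groups, Igf2 is blue at the lesion on day 3 in all 3 arms, and Igf1r is pale, with differences from -0.55 to 0.57.

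Set against each other in lesion control over shared days, the lesion segment was above the rostral one in 7 of 8 members (of all genes 45.9% were higher, 37.3% lower, 83.2% either) and above the caudal one in 8 of 8 (44.7%, 39% and 83.7%). The widest gaps were in 4 of the 5 binding proteins. Igfbp3 differed by 0.78 ± 0.13 from rostral and 1.57 ± 0.13 from caudal, Igfbp4 by 1.33 ± 0.07 and 1.45 ± 0.07, Igfbp5 by 1.30 ± 0.09 and 1.71 ± 0.09, and Igfbp6 by 1.28 ± 0.10 and 1.90 ± 0.10 from rostral and caudal. Igf1 differed by 0.63 ± 0.08 and 0.83 ± 0.08. Without the muscle-rich arrays 4 of 8 members were called against rostral: Igf1 (0.58), Igfbp4 (1.16), Igfbp5 (1.13) and Igfbp6 (0.94). Igf2 then fell from 0.39 to 0.02 (adjusted p = 0.931), Igfbp3 from 0.78 to 0.43 (adjusted p = 0.0747), and Igfbp2 turned from 0.27 to -0.11 (adjusted p = 0.452). Against caudal 7 were still called, and Igfbp2 was not (0.25, adjusted p = 0.0768).

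The rostral segment exceeded the caudal one in 5 of 8 members, where 3.53% of all genes were higher, 3.56% lower and 7.08% either: Igf2 by 0.71 ± 0.09 (adjusted p = 1.06e-07), Igfbp3 by 0.70 ± 0.12, Igfbp6 by 0.60 ± 0.10, Igfbp5 by 0.52 ± 0.09 and Igfbp2 by 0.37 ± 0.08. On day 60 Igf2 arrays read 12.24, 12.08 and 12.14 rostral and 11.17, 11.19 and 10.51 caudal, without overlap. Of the 15 genes of meninges and fibroblasts, 12 were higher rostral and 0 lower (median 0.45), whereas 2 of 16 microglia and macrophage genes were higher. How far the fibroblast and meningeal cells account for the members' gap was not tested. Normal cord has no label of position, so a difference along the cord before injury cannot be told apart from this gap.

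Compared between days in lesion control, comparisons added after the data were seen, the members divided by timing. From day 1 to day 3, 4 were higher rostral (18.7% of all genes) and 5 higher and 1 lower caudal (24.2% and 21.1%), and from day 3 to day 10 at the lesion 7 were higher (18.3%). Igf1r fell by 0.64 ± 0.14 caudally. The rises of Igfbp3 (0.64 ± 0.23) and Igfbp4 (0.53 ± 0.19) at the lesion each lost their calls without single arrays: Igfbp3 without day 3 replicate 2 (0.54) or day 10 replicate 2 (0.52), and Igfbp4 without day 3 replicate 1 (0.325), day 10 replicate 2 (0.52) or day 10 replicate 3 (0.285). The rostral rise of Igfbp3 from day 1 to day 3 (0.77 ± 0.23) was not called without day 1 replicate 2 (0.63, adjusted p = 0.0654) or day 3 replicate 2 (0.68, adjusted p = 0.0504).

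Days 60 and 90 against days 1 and 3 gave 3 higher and 2 lower members rostral (19.6% and 29.8% of all genes), 1 higher and 4 lower caudal (21.3% and 28.5%), and, against day 3, 5 higher and 0 lower at the lesion (29.3% and 37.9%). Igf1 rose in both outer segments, by 1.55 ± 0.16 and 1.23 ± 0.18, while Igfbp3 fell in both. Igf2 rose by 1.525 ± 0.11 rostral (adjusted p = 1.41e-15) and differed by -0.01 ± 0.22 caudal (adjusted p = 0.983). The fall of Igfbp2 caudal (-0.44 ± 0.16, adjusted p = 0.0221) was lost without day 60 replicate 3 (-0.36) or day 90 replicate 2 (-0.25). Marker lists moved between these days as well. Of 15 genes of meninges and fibroblasts, 0 were higher and 9 lower caudal (median -0.50), 4 higher and 5 lower rostral (-0.05) and 8 higher and 4 lower at the lesion (0.22), and the 5 cell cycle genes fell in each segment. Their part in the members' changes was not tested. Rostral Igfbp6, at -0.36 ± 0.16 (adjusted p = 0.0627), passed without day 1 replicate 3, day 3 replicate 1 or day 60 replicate 3 (-0.46 to -0.41) and stood at -0.22 without day 3 replicate 2.

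The arms differed less from each other than from normal cord. In each comparison of arms the largest difference was in a binding protein, of which the 8 members hold 5. Igf1 and Igf1r were also called at the lesion in NT-3 tube against lesion control. These comparisons share arrays, since each arm enters a pair of them. NT-3 tube against lesion control over all shared days called 1 of 8 members rostral (of all genes 1.77% were higher and 1.27% lower, 3.04% in all): Igf1r fell by 0.16 ± 0.04 (adjusted p = 0.0422). Caudal, 2 members were higher (of all genes 3.95% were higher, 6.25% lower, 10.2% either): Igfbp3 by 0.74 ± 0.15 (1.67-fold, adjusted p = 0.00177) and Igfbp5 by 0.43 ± 0.14 (adjusted p = 0.0353). At the lesion, 4 were higher and 2 lower (23%, 19% and 42%), and the largest was Igfbp3 at 0.70 ± 0.09 (1.63-fold, adjusted p = 3.20e-07). Marker lists moved in the lesion comparison too: skeletal muscle had 14 of 14 genes lower (median -1.94), neurons 7 of 10 (-0.96), oligodendrocytes 6 of 6 (-0.75), sensory ganglion 5 of 5 (-1.06) and endothelium 5 of 6 (-0.31). Meninges and fibroblasts had 8 of 15 higher and 1 lower (0.11), microglia and macrophages 8 of 16 higher and 1 lower (0.20), and cell cycle genes 4 of 5 higher (0.32). Their part in the members' differences was not tested. Without any 1 replicate number the caudal count was 0 to 1 and the rostral count 0.

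Igfbp3 at the lesion read 11.87, 12.13 and 12.17 in NT-3 tube on day 3, where lesion control had 11.22, 10.84 and 11.07. On day 60 it read 11.32, 11.87 and 12.24 against 10.40, 10.74 and 9.85. On both days all NT-3 tube arrays lay above all lesion control arrays. The difference was called on days 3, 30, 60 and 90 and not on days 10 and 20. Of the called days, 30 and 60 are matched days. Caudal values on day 20 were 10.82, 10.73 and 10.57 against 8.70, 8.96 and 9.83. Without the muscle-rich arrays the lesion difference was 0.67 (adjusted p = 0.00941).

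Igfbp4 at the lesion ran the other way and fell by 0.44 ± 0.08 in NT-3 tube (1.36-fold, adjusted p = 3.86e-05). Arrays on day 20 were 9.79, 10.03 and 9.58 against 10.89, 10.97 and 10.55 in lesion control, and on day 30 they were 9.71, 9.54 and 9.80 against 11.08, 10.34 and 10.64, with no overlap. Days 10, 20 and 30 were called. All 14 skeletal muscle genes tested were lower in NT-3 tube at the lesion too (median -1.94), and without the muscle-rich arrays Igfbp4 differed by -0.28 (adjusted p = 0.109). The part of muscle in this difference was not tested.

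Igf1 at the lesion crossed over time. On day 10 NT-3 tube read 12.52, 12.32 and 12.26 against 13.18, 13.25 and 13.14 in lesion control, a difference of -0.82 ± 0.11, and on day 60 it read 12.37, 12.69 and 12.45 against 11.92, 12.04 and 11.90, higher by 0.55 ± 0.11. Arrays did not overlap on either day, and the mean over days, -0.12 ± 0.04 (adjusted p = 0.0290), joins days of opposite sign. It was -0.16 (adjusted p = 0.267) without the muscle-rich arrays. Igf2 likewise was higher in NT-3 tube on day 3 (0.60 ± 0.19), lower on day 10 (-0.88 ± 0.19) and higher on day 90 (0.49 ± 0.19). Only day 10 of these is a matched day. RT1-CE10 in NT-3 tube and lesion control was 9.05 and 7.85 on day 3, and 11.45 and 7.59 on day 90. Igfbp6 was higher over all days by 0.28 ± 0.06, called on days 3 (1.02 ± 0.16) and 60 (0.43 ± 0.16). Here too day 3 is not a matched day. Igf1r was higher by 0.18 ± 0.04. Without the muscle-rich arrays Igfbp6 (0.39, adjusted p = 0.0309) and Igf1r (0.22, adjusted p = 0.0465) kept their calls. Igfbp5 was higher by 0.24 ± 0.09, called on day 3 alone (1.24 ± 0.23). Without the muscle-rich arrays its difference was still 0.24 but not called (adjusted p = 0.495), with 12 of 18 lesion control arrays left out. On the matched days 10, 30 and 60 it was -0.02 (adjusted p = 0.940). Igfbp6 on matched days was 0.18 (adjusted p = 0.126). Over the 20 shared days and segments the single-day calls of NT-3 tube were 5 higher and 1 lower for Igfbp3, 0 higher and 4 lower for Igfbp4 and 0 for Igfbp2, where 5.36% of gene and day pairs were higher and 4.23% lower.

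**Figure D3:**
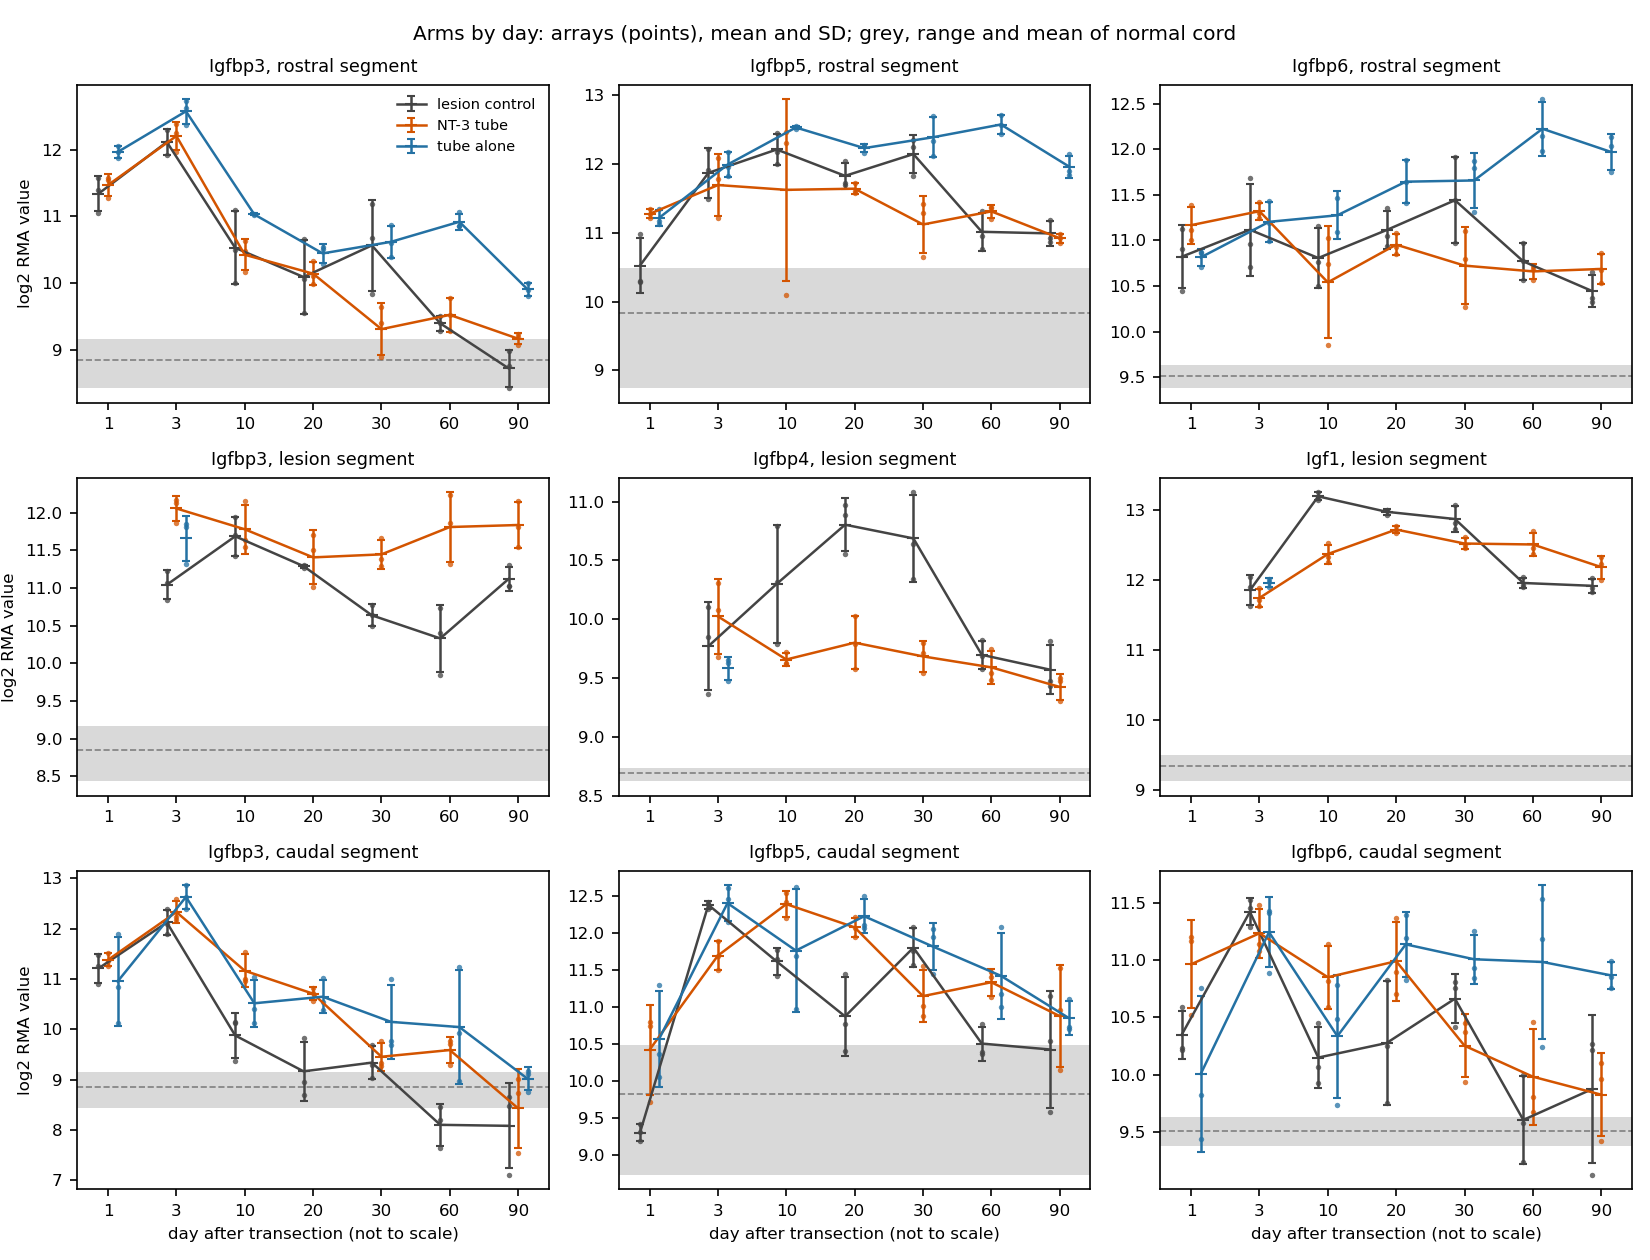
Log2 RMA values by day after transection (days spaced evenly) in lesion control, NT-3 tube and tube alone for Igfbp3, Igfbp5 and Igfbp6 rostral and caudal and for Igfbp3, Igfbp4 and Igf1 at the lesion, with arrays as points, means joined by lines, SD as bars and normal cord in grey. Rostral tube alone runs above the other arms on day 60, and lesion Igfbp4 of lesion control stands above NT-3 tube on days 10 to 30.

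The empty tube differed from lesion control in binding proteins. Rostral, 4 members were higher (of all genes 12.2% were higher, 18.3% lower, 30.5% either): Igfbp3 by 0.67 ± 0.09 (1.59-fold, adjusted p = 4.79e-07), Igfbp5 by 0.62 ± 0.13, Igfbp6 by 0.61 ± 0.09 and Igfbp4 by 0.19 ± 0.06. Caudal, 3 were higher (3.66%, 4.99% and 8.65%): Igfbp3 by 0.87 ± 0.15, Igfbp5 by 0.59 ± 0.14 and Igfbp6 by 0.46 ± 0.11. The ligands and the receptor were not called in either segment, and without the arrays numbered replicate 1 the caudal count was 0. On day 90, a matched day, rostral Igfbp6 read 12.13, 11.75 and 12.03 in tube alone and 10.32, 10.65 and 10.37 in lesion control, and Igfbp5 read 12.14, 11.90 and 11.84 against 10.92, 11.19 and 10.86. No array overlapped on that day. Day 60, where Igfbp6 read 12.55, 12.14 and 11.98 against 10.77, 10.57 and 10.97, is not a matched day: RT1-CE10 was 10.42 in tube alone and 7.38 in lesion control. At the lesion on day 3, 0 of 8 members passed limma's test (1.88% of all genes higher, 5.22% lower, 7.1% either) and 2 had an unadjusted p under 0.05, with Igfbp5 at 0.70 ± 0.23 (adjusted p = 0.0523) and Igfbp3 at 0.62 ± 0.23 (adjusted p = 0.0900).

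NT-3 tube against tube alone gave 6 lower and 0 higher members rostral (of all genes 15.6% were higher, 7.54% lower, 23.1% either): Igfbp5 fell by 0.76 ± 0.13 (adjusted p = 1.66e-05), Igfbp3 by 0.74 ± 0.09, Igfbp6 by 0.68 ± 0.09, Igfbp4 by 0.37 ± 0.06, Igf2 by 0.22 ± 0.06 and Igfbp2 by 0.19 ± 0.05. Caudal, 0 were called by limma (1.96% of all genes higher, 1.97% lower, 3.93% either) and 0 had an unadjusted p under 0.05, with differences from -0.21 to 0.15. The difference between segments was itself called for Igfbp3 (-0.62 ± 0.17, adjusted p = 0.0156), Igfbp5 (-0.60 ± 0.16), Igfbp6 (-0.47 ± 0.14) and Igfbp4 (-0.34 ± 0.09), where 8.86% of all genes were called. On matched days Igfbp5 of tube alone against lesion control was 0.41 rostral (adjusted p = 0.0524) and 0.39 caudal (adjusted p = 0.119), and Igf2 and Igfbp2 of NT-3 tube against tube alone were -0.16 and -0.14 and not called.

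Tube alone also had more signal from fibroblast genes in both segments, and rostral from muscle genes. Caudal, 9 of 15 genes of meninges and fibroblasts were higher than in lesion control and 1 lower (median 0.36), and 0 of 10 skeletal muscle genes were called by limma (median 0.39). Rostral, 12 of the 15 were higher and 1 lower (median 0.57), and their mean level above normal cord was 1.45 to 2.52 in tube alone, 1.06 to 2.45 in lesion control and 0.96 to 2.65 in NT-3 tube. Of 13 skeletal muscle genes, 9 were higher and 1 lower (median 0.87), with a mean level of -0.60 to 4.12. Arrays high in muscle genes were not left out of the rostral comparisons. Against tube alone, NT-3 tube had 1 of the 15 higher and 12 lower (median -0.62) rostral and 0 called caudal. Their part in the binding protein differences was not tested.

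The other genes of the IGF pathway moved in both directions. Of 42 listed (receptors, adaptors, proteases, kinases and related binding proteins), 35 were measured and 28 or 29 tested. Against normal cord in lesion control on days 10 to 30, 11 were higher and 5 lower rostral (median 0.02), 16 higher and 6 lower at the lesion (median 0.51) and 7 higher and 7 lower caudal (median 0.02). Of all genes 63.1%, 77.9% and 57.3% were called in these comparisons, against 57.1%, 75.9% and 50% of the list. On days 60 and 90 the counts were 8 and 8, 15 and 5, and 6 and 8. On days 1 and 3 they were 8 and 6 rostral and 8 and 6 caudal, and on day 3 at the lesion 16 and 7. Of the list, 57.1% rostral, 69.0% at the lesion and 50% caudal were called on days 60 and 90. On the first days it was 50%, 79.3% and 50%. The shares of all genes called, given above with the counts of members, were higher than these except at the lesion on day 3.

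The largest changes were in matrix-associated CCN genes, once grouped with the IGF-binding proteins. Ccn1 differed by 4.76 ± 0.27, Ccn2 by 4.24 ± 0.16 and Ccn3 by 4.72 ± 0.22 at the lesion on days 10 to 30, though Ccn1 lay below the level required for testing in normal cord (mean 5.17), where RMA compresses differences. Rostral the same days gave 2.21 ± 0.35, 2.83 ± 0.27 and 2.56 ± 0.21. Shc1, an adaptor between receptor tyrosine kinases and RAS, rose by 3.07 ± 0.13 at the lesion on day 3 and by 1.47 ± 0.14 rostral and 1.68 ± 0.17 caudal on days 1 and 3. Chosen for their roles after their values were seen, Igf2r, which clears IGF2, rose by 1.92 at the lesion on days 10 to 30, and Irs2, an adaptor below the receptor, fell by 1.2 there and by 0.88 rostral and 0.84 caudal. The insulin receptor Insr, at 0.15 ± 0.10 at the lesion on those days, was not called by limma (adjusted p = 0.174).

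Over the 56 group means of cord arrays, the pairs of members differed widely in how alike they ran. Igf2 and Igfbp2 correlated at 0.87 (0.98 within the lesion groups, 0.69 rostral and 0.42 caudal), Igfbp5 and Igfbp6 at 0.85 and Igf1 and Igfbp5 at 0.71. The neighbours Igfbp2 and Igfbp5 correlated at 0.64, and Igf1 and Igfbp3 at -0.08. The groups share platform, processing and the design, and segment and day set much of the spread, so these are descriptions without a test.

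**Figure D4:**
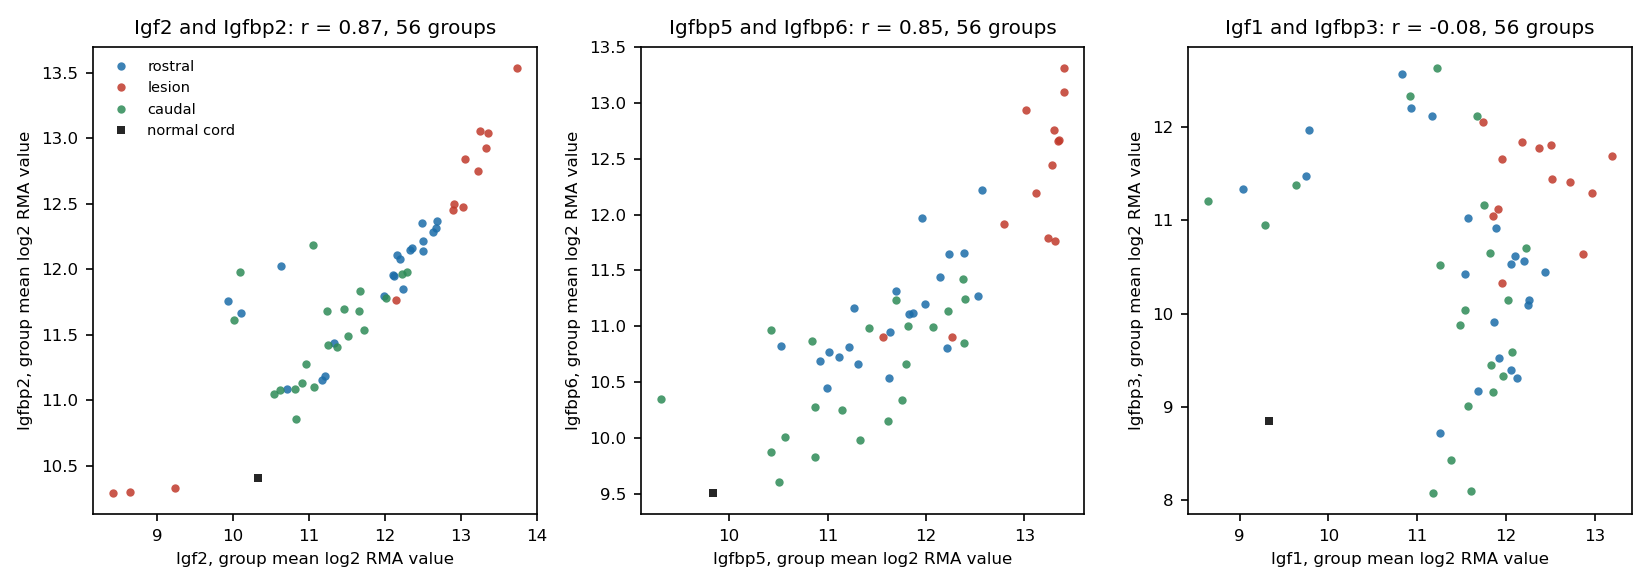
Group means (log2 RMA values) of 3 pairs of members over 55 injured groups, coloured by segment, and normal cord (black square), each axis being 1 gene. Igf2 and Igfbp2 lie along a line with the 3 lesion groups of day 3 at its low end, Igfbp5 and Igfbp6 rise together, and Igf1 and Igfbp3 show no common trend (r = -0.08).

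Among 11981 genes, those whose group means ran most like each member were as follows. Igf1 was nearest to the lysosomal enzymes Hexa (r = 0.950), Aga (0.946) and Dpp7 (0.937). Igf2 was nearest to Ndnf (0.906), Cpxm2 (0.901) and Slc16a12 (0.891), and Igfbp2 to the meningeal GABA transporter Slc6a13 (0.898), Wnt5b (0.891) and again Cpxm2 (0.874). Igfbp3 was nearest to the retinol-binding protein receptor Stra6 (0.907), Pla1a (0.899) and Sectm1b (0.891), and Igfbp4 to Tgfb3 (0.942), Olfml2b (0.935) and Plagl1 (0.934). Igfbp5 was nearest to the basement membrane gene Nid1 (0.946), Tcn2 (0.941) and Smoc2 (0.936), and Igfbp6 to Nupr1 (0.942), Chmp4c (0.942) and Fam180a (0.933). Igf1r had the weakest likeness, to Hoxb4 (0.726), Pard3 (0.710) and Ssbp3 (0.684).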

How the data were processed

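RNA pools of rat spinal cord were hybridised to Affymetrix rat expression arrays. Per the submitters' processing notes, the authors used RMA in Affymetrix Expression Console (no version is given in the sources used here). Log2 values of 31099 probe sets for 172 arrays, from 2.6 to 15.0, make up the deposited table. Array medians were 7.10 to 7.25, so the values were used as deposited. RMA compresses low signals and would hide a shift of all genes, and precision is limited by how many arrays a group has.

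Probe sets with 1 gene symbol (20832, of which 20764 are in the rat gene table; 436 carry several and 9831 are unnamed here) gave 14218 genes, and the brightest probe set in cord stood for a gene with several. Genes were tested where a group mean reached the 40th percentile (6.55). limma 3.58.1 in R 4.3.3 (lmFit, eBayes) was fitted to each segment with normal cord, and to the segments of lesion control together, with Benjamini-Hochberg adjustment over all genes tested in a comparison. It was tested on simulated data. Python 3.11.15, pandas 2.3.3, numpy 2.4.6 and matplotlib 3.10.9 did the rest.

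The members and lists were chosen with earlier results of these data known. All 8 members are named whatever their values, and of the other pathway genes the 3 called ones with the largest difference in each comparison with normal cord. Comparisons between days and the removal of muscle-rich arrays were added after the data were seen. Alternatives were testing dim genes too, quantile normalization once more, trend and robust prior, array weights, a replicate block, the mean of all probe sets, only the groups in the contrast, matched days and leaving out arrays. Replicate numbers were taken as names, since 63 of 138 same-numbered pairs of segments, not all, deviated together at r above 0.1 (from -0.486 to 0.556).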

Additional observations from a re-analysis of the deposited data

Results flagged for a closer look

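The effect of NT-3 tube against tube alone differed between the rostral and caudal segments by an interaction test in limma for Igfbp3 (-0.6152, adjusted p = 0.0156), Igfbp4 (-0.3407, adjusted p = 0.0119), Igfbp5 (-0.6005, adjusted p = 0.0134) and Igfbp6 (-0.465, adjusted p = 0.0222), each more negative rostral, where 8.86% of all genes were called. NT-3 tube against lesion control, over the 6 days that the segments share, differed between lesion and rostral for Igf1r (0.2756, adjusted p = 0.00147), Igfbp3 (0.8128, adjusted p = 0.000223), Igfbp5 (0.5272, adjusted p = 0.0148) and Igfbp6 (0.4156, adjusted p = 0.0238), with 29.5% of all genes called. It differed between lesion and caudal for Igfbp4 (-0.3394, adjusted p = 0.00519), with 24% called, and between caudal and rostral for Igfbp3 (0.8105, adjusted p = 0.0116), where 9 of 11989 genes were called.

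In the 5 arrays of reference RNA, which enter no comparison, 1 array of Igf1 read 11.09 and the others 11.62 to 11.78; chance sets apart about 1 in 20 such groups. The reference RNA means were above normal cord for Igf1 (11.56), Igf1r (9.56), Igfbp3 (11.268), Igfbp4 (9.5) and Igfbp6 (11.196).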

How the results depend on the processing

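Of 3352 recomputed member values 3203 kept their side of the threshold, 91 lost a call and 56 gained one. Among the 3203, 86 values that were called in neither setting changed sign. A called value changed sign in 2 cases. These were Igfbp5 in NT-3 tube against lesion control at the lesion on matched days (-0.017) and Igfbp2 in lesion against rostral without the muscle-rich arrays (-0.11). The causes were not tested. Members called in NT-3 tube against lesion control rostral (1) numbered 2 after a second quantile normalization or with array weights, and 0 with the mean of all probe sets, with only the groups in the contrast, on matched days, or without any 1 replicate number. Its caudal count (2) was 4 with array weights, 1 on matched days and 0 to 1 without a replicate number, and its lesion count (6) was 3 without the muscle-rich arrays and 3 to 5 without a replicate number. Tube alone against lesion control on day 3 at the lesion (0) gave 1 with dim genes tested, 2 with array weights, 1 with the mean of all probe sets and 0 to 1 without a replicate number, and caudal (3) it gave 0 to 3. Lesion control caudal on days 60 and 90 (2) gave 4 with the mean of all probe sets, 3 with array weights (Igfbp3 at -0.76, adjusted p = 0.0192), and 1 to 4 without a replicate number or an array. Lesion against rostral (7) gave 4 without the muscle-rich arrays, rostral against caudal (5) gave 3 to 6, and day 3 against day 1 rostral (4) gave 2 to 4, without a replicate number. With the replicate number as a block the counts in all 26 comparisons were those reported, such as 6, 7 and 5 rostral, 6, 8 and 8 at the lesion and 5, 6 and 2 caudal against normal cord. Of 138 same-numbered pairs 61 correlated best with their own number. In NT-3 tube rostral and caudal 13 of 21 pairs were over 0.1 and 12 best with their own number (median 0.242). The interaction tests were run without the block. Single arrays were not left out of the arm comparisons, and matched days gave no value for the lesion on day 3 and on days 60 and 90 against normal cord.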
